A study of Mus musculus with 6 samples.

Results

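The DNA replication machinery is the set of proteins that licenses origins, unwinds DNA, copies both strands and restores chromatin behind the fork. A list of 51 mouse genes of this machinery was followed in Ly6D-negative common lymphoid progenitors, marrow progenitors not yet bound to the B lineage. One probe set was taken for each gene, the one with the highest mean over the 6 arrays among probe sets annotated with a single gene symbol. This gave a value for 50 of the 51 members, out of 22180 genes with a value. Rfc4, a clamp loader subunit gene, was left out, since its probe set also names Eif4a2. All 50 members were bright enough to be tested among the 13308 genes left after the lowest 40% of genes by mean (under 4.84) were removed.

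Arrays were hybridised with RNA from 3 control and 3 mutant samples, 1 array each. Mutant mice were OcnCre+;iDTR+/- and control mice OcnCre-;iDTR+/-, so both groups carried iDTR, an inducible receptor for diphtheria toxin, and both were given the toxin daily over 4 weeks. Cre driven by the osteocalcin promoter switches on the receptor in osteocalcin-expressing bone cells, which the toxin then kills. The mice were 6 to 8 weeks old, and the progenitors were sorted from marrow by flow cytometry on the day after the last dose. The labels do not say whether a replicate was 1 mouse or a pool, so a p-value reflects the variation among the samples at hand, which may be technical, and the precision is limited by 3 arrays a group. All values are log2 probe set intensities, on which a difference of 1 is a doubling. In sorted cells measured in bulk, fewer cells in S phase and less replication RNA per cell cannot be told apart.

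Replication proceeds in stages that involve different members. In G1 phase the origin recognition complex, Cdc6 and Cdt1 load the ring of Mcm2 to Mcm7 onto DNA, and geminin, encoded by Gmnn, blocks reloading. At the onset of S phase the kinase Cdc7 with its activator Dbf4 helps to join Cdc45 and the GINS complex to the MCM ring, which then becomes the active helicase. Most of these genes are transcribed in bursts at the G1 to S transition under E2F transcription factors, so their RNA is commonly used as a sign of proliferation, and early lymphoid progenitors are among the dividing cells of the marrow.

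The tissue label reads bone marrow stroma, while the arrays carried transcripts of lymphoid progenitors and of granulocytes. Of 7 stroma and bone markers with a value 5 were bright enough to be tested, and Lepr and Sp7 were not. The 5 had means of 8.09 for Alpl, 6.02 for Cxcl12, 5.93 for Col1a1, 5.44 for Col1a2 and 5.22 for Bglap. The summed level of the 7 with a value was 8.82 to 9.04 in controls and 8.99 to 9.08 in mutants. Among the lymphoid progenitor markers, Il7r lay between 9.72 and 10.35 on the 6 arrays, and Dntt, the gene of terminal transferase, between 10.61 and 11.04. Neutrophil and monocyte markers were bright as well, with Mpo between 9.48 and 11.45 and S100a8 between 11.32 and 12.09. The summed level of the 10 neutrophil and monocyte markers (log2 of the summed linear values) was 12.92 to 13.80 in controls and 13.02 to 13.89 in mutants, and was highest in control replicate 1 and mutant replicate 1. Of these 10 markers 8 had a higher mutant mean. The 6 measured erythroid markers summed to 9.62 to 10.21 in controls and 9.27 to 10.29 in mutants. Neither range separated the groups. The summed level of 8 lymphoid progenitor markers did, at 12.20 to 12.40 in controls and 12.07 to 12.14 in mutants, with 7 of 8 lower and a median of −0.19, or −0.02 relative to genes of like brightness. All 5 tested megakaryocyte markers had a higher mutant mean. The 6 with a value summed to 7.73 to 8.25 in controls and 8.10 to 8.26 in mutants. All 4 tested T cell markers had a lower mutant mean. The 5 with a value summed to 7.43 to 8.40 in controls and 7.33 to 7.83 in mutants. The part of these cells in the replication values was not tested. Mutant replicate 2 stood apart, with r = 0.964 to 0.972 against every other array, where the remaining 5 reached 0.984 to 0.994 among themselves (across genes, which are not independent). The difference of a single member moved by over 1.5 times for 26 of 50 members when mutant replicate 2 was left out, for 24 without mutant replicate 3 and for 8 to 16 without any other array. For 10 members no array did so: Mcm4, Mcm6, Mcm7, Mcm10, Gins2, Pola1, Lig1, Chaf1b, Rrm1 and Tk1. The Y-linked gene Eif2s3y was low on control replicate 1 and mutant replicate 3 and high on the other 4 arrays. With that split as a block, 0 members passed.

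Replication genes were abundant, and on the deposited values almost all had a lower mean in the mutant group, as did most genes of like brightness. Means over the 6 arrays ran from 6.11 for Timeless to 11.07 for Pcna, with a median of 7.87 against 6.28 over all genes tested, and 33 of the 50 members were among the brightest 20% of genes. The mutant mean was lower for 49 of 50 members, against 57.5% of all genes tested, and the median difference was −0.24, against −0.04 over all genes. No member passed the adjusted threshold of 0.05 in limma, where 0% of all genes passed, and the adjusted p of single members ran from 0.594 to 0.97. At an unadjusted p under 0.05 the count was 5 of 50, all lower, which is 10% of members against 6.02% of all genes tested (8.03% in either direction, 2.01% higher). Groups did not overlap, with all mutants below all controls, for 10 of 50 members against 9.99% of all genes tested. No member had all mutants above all controls, against 5.4% of all genes tested (15.4% without overlap in either direction). Without mutant replicate 1 the count without overlap was 27 (all genes 27.6%), and without control replicate 1 it was 23 (all genes 19.3%). Without any other single array it was 11 to 14 (all genes 12.5% to 14%). Leaving out an array can only keep or raise such a count, and shares for genes of like brightness were not computed here.

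**Figure D1:**
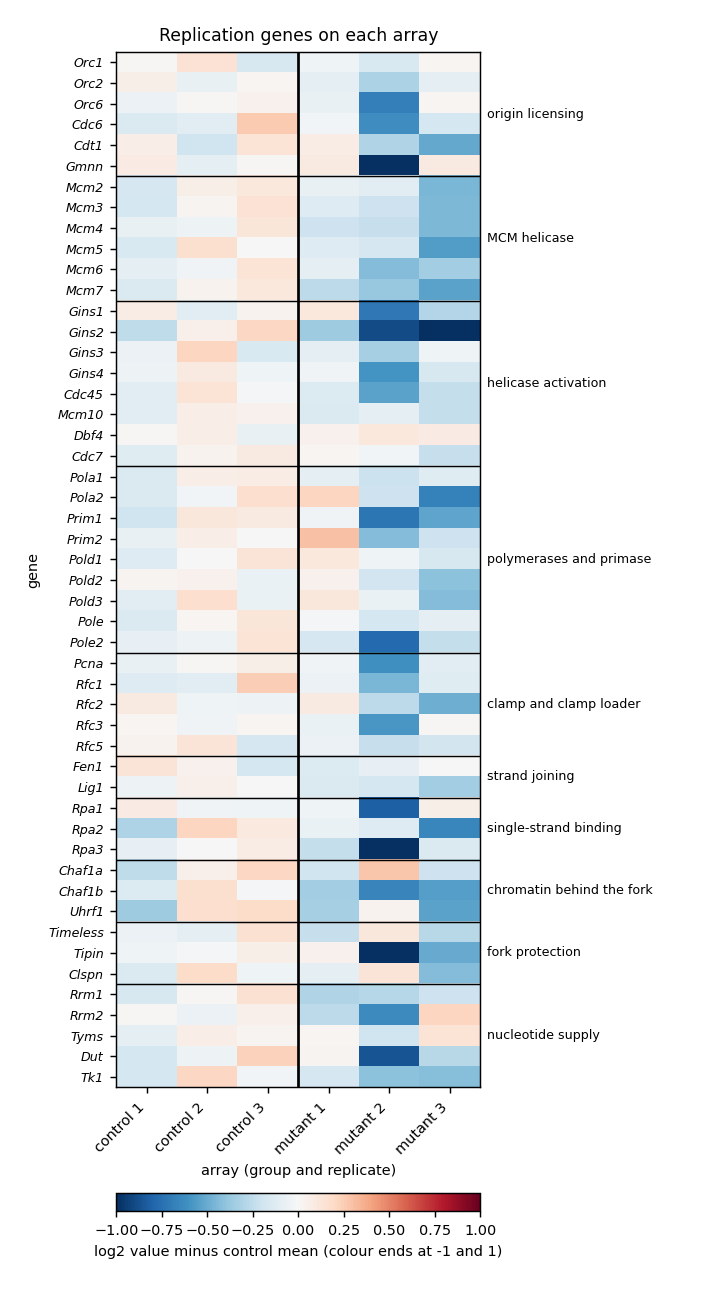
Log2 value minus the control mean (colour) of the 50 measured replication genes (rows, by role) on the 3 control and 3 mutant arrays (columns); colours end at −1 and 1. Blue, below the control mean, is common on mutant replicates 2 and 3 and weak on mutant replicate 1.

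Genes of like brightness leaned the same way. Bright genes as a whole were lower on mutant replicates 2 and 3, so each member was set beside the genes of its own brightness group, 10 equal groups by the mean over all arrays. Among genes tested in the members' brightness groups, weighted by the number of members in each, 80.3% had a lower mutant mean, 15.9% did not overlap with mutants lower, and 10.1% had an unadjusted p under 0.05 with mutants lower. The members' shares were 98%, 20% and 10%. In the brightest group, from 8.27 upwards, the median difference was −0.21 over 1331 genes and −0.28 over its 16 members. The next group had −0.19 over all its genes and −0.21 over 17 members. After the median of its brightness group was subtracted from each member, 36 of 50 remained lower, and the median difference was −0.05. Without mutant replicate 2 that median was −0.09, without mutant replicate 1 it was −0.03, and without control replicate 3 it was −0.03. Normalizations that remove trends with brightness gave a like picture, with 35 of 50 members lower and a median of −0.06 after cyclic loess, and 36 of 50 and −0.07 after repeated quantile normalization.

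**Figure D2:**
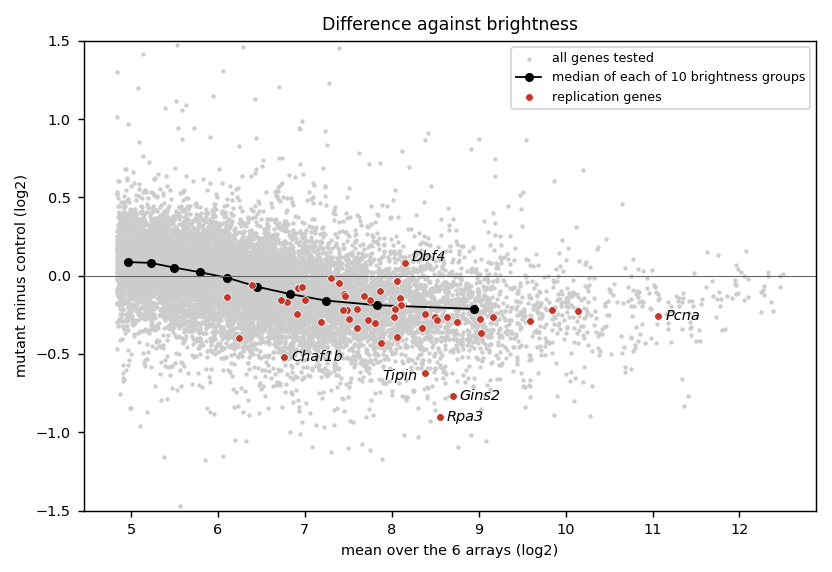
Mutant minus control difference (log2, y axis) against the mean over the 6 arrays (log2, x axis) for all genes tested (grey; 3 lie outside the plotted range), the median of each of 10 brightness groups (black line) and the replication genes (red). The black line falls from 0.09 to −0.21 with brightness and most replication genes lie close to it. Rpa3, Gins2, Tipin, Chaf1b and Pole2 (not labelled, −0.38 relative to its group) lie well below it.

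By array, the fall below the control mean was not shared evenly by the mutants. The members' score, the median over the 50 members of the value minus the control mean, was −0.10, 0.04 and 0.05 in the controls, in order of replicate, and −0.07, −0.29 and −0.24 in the mutants. Mutant replicate 1 was thus above control replicate 1. Relative to genes of like brightness the score was −0.07, 0.02 and 0.04 in the controls and −0.07, −0.01 and −0.10 in the mutants, and the groups overlapped. Of the 50 members 25 had their lowest value of all arrays on mutant replicate 2 and 20 on mutant replicate 3, against 1 on mutant replicate 1. Their highest value fell on control replicate 3 for 22 members and on control replicate 2 for 14. Such counts were not made for other genes. The median gene of the brightest group was also lower on mutant replicates 2 (−0.42) and 3 (−0.18). Control replicate 1 and mutant replicate 1, the arrays with the most neutrophil transcripts, had scores close to each other. Mutant replicate 3, with the score of −0.24, also had a higher neutrophil and monocyte sum (13.52) than control replicates 2 and 3 (12.92 and 13.11). A link between these sums and the scores was not tested.

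**Figure D3:**
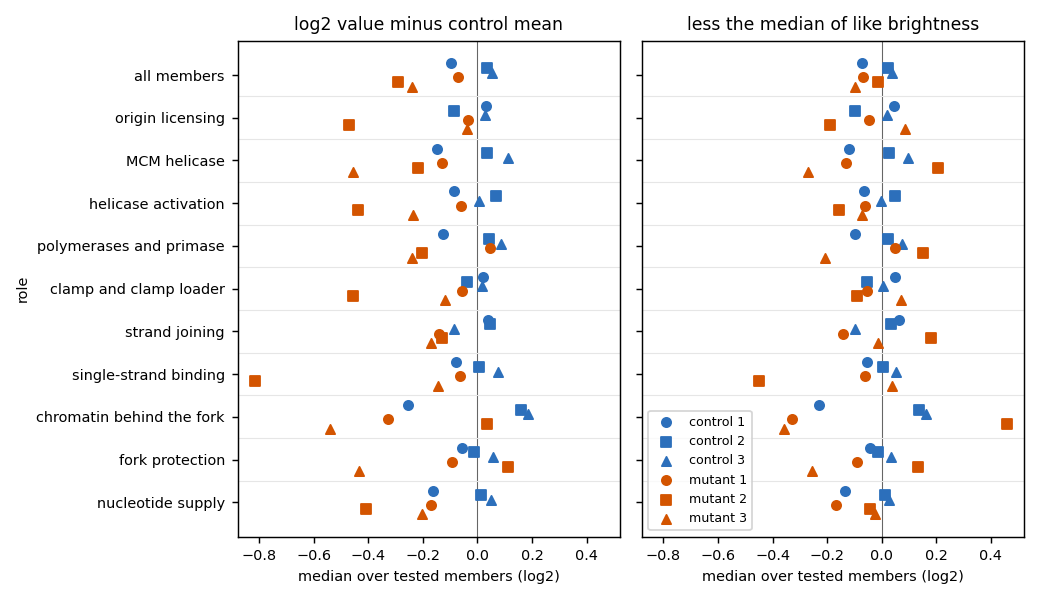
Median over the tested members of each role (rows) on each array (symbols; blue control, orange mutant, shape by replicate), as log2 value minus control mean (left) and less the median of genes of like brightness (right). On the left mutant replicates 2 and 3 lie lowest for all members together (−0.29 and −0.24), and on the right all members together lie between −0.10 and 0.04 on every array.

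Origin licensing genes, which mark where replication may begin, were lower in mutants for 6 of 6 members, with a median of −0.25, or −0.06 without mutant replicate 2. Orc2, an origin recognition subunit gene, was at 6.94, 6.81 and 6.90 in the controls, replicates 1, 2 and 3 in turn, and at 6.79, 6.56 and 6.79 in the mutants (−0.17 ± 0.12, SE). Its groups did not overlap, but control replicate 2 and mutant replicates 1 and 3 were almost level, and the difference was −0.09 without mutant replicate 2. Cdc6, the loader of the MCM ring, was at 7.49, 7.53 and 7.90 in controls and 7.61, 7.02 and 7.46 in mutants (−0.28 ± 0.19), and mutant replicate 1 lay above 2 of the controls. Leaving out mutant replicate 2 gave −0.10, and leaving out control replicate 3 gave −0.15. Gmnn, the gene of the licensing inhibitor geminin, was at 8.43 to 8.60 in controls and at 8.61, 7.33 and 8.61 in mutants, so that mutant replicate 2 alone was low. Cdt1, the partner of geminin, was instead lowest on mutant replicate 3 (6.52, against 6.83 to 7.17 in controls), and its difference of −0.25 was −0.11 without that array and −0.41 without mutant replicate 1. The 2 remaining members were at −0.25 for Orc6, which was −0.03 without mutant replicate 2, and −0.06 for Orc1, and the value of Orc1 turned to 0.02 after repeated quantile normalization.

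All 6 subunit genes of the MCM helicase ring were lower in mutants, within a narrow range of −0.22 (Mcm2) to −0.39 (Mcm7) and with a median of −0.29. The sign of each was kept after cyclic loess and repeated quantile normalization, but the median shrank to −0.07 and −0.08. Mcm7 was at 8.11, 8.29 and 8.36 in controls and at 8.00, 7.88 and 7.73 in mutants (−0.39 ± 0.13, unadjusted p = 0.0163 in limma). Mcm4 was at 8.83, 8.85 and 9.03 in controls and at 8.69, 8.67 and 8.45 in mutants (−0.30 ± 0.12, unadjusted p = 0.0455 in limma). For both genes every mutant lay below every control. Mcm2, Mcm3, Mcm5 and Mcm6 had mutant replicate 1 within the range of the controls, and Mcm2 also mutant replicate 2. Without mutant replicate 3 the differences of Mcm2, Mcm3 and Mcm5 were −0.09, −0.17 and −0.15. On mutant replicate 3 the 6 genes were 0.35 to 0.56 below their control means, on mutant replicate 2 they were 0.12 to 0.43 below. Relative to genes of like brightness the MCM score was 0.21 on mutant replicate 2 and −0.27 on mutant replicate 3, where controls ran from −0.12 to 0.09.

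Genes that turn the loaded ring into a working helicase included Gins2, which was low on both mutant replicates 2 and 3. Gins2, a GINS subunit gene, was at 8.83, 9.14 and 9.29 in controls and at 8.73, 8.19 and 8.04 in mutants (−0.77 ± 0.21, unadjusted p = 0.00589 in limma, rank 65 of 13308). Every mutant lay below every control, the difference kept between −0.97 and −0.63 on leaving out any 1 array, and it was −0.55 relative to genes of like brightness. The partner subunit genes differed less, at −0.30 for Gins1, −0.26 for Gins4 and −0.15 for Gins3. Without mutant replicate 2 these were −0.09, −0.10 and −0.06, and Gins1 was −0.50 without mutant replicate 1, Gins3 −0.05 without control replicate 2. Cdc45, which joins GINS on the ring, was at 7.84, 8.10 and 7.94 in controls and at 7.82, 7.42 and 7.72 in mutants (−0.31 ± 0.14). Its groups did not overlap, although control replicate 1 and mutant replicate 1 were almost level, and its difference was −0.19 without mutant replicate 2. Dbf4, the activator of the Cdc7 kinase, was the only member with a higher mutant mean, at 8.13, 8.18 and 8.04 in controls and 8.15, 8.22 and 8.20 in mutants (0.08 ± 0.11), and its groups overlapped. Cdc7 itself was at −0.08 ± 0.13 and Mcm10, a helicase assembly factor gene, at −0.16 ± 0.12. Across the 8 genes of helicase activation 7 were lower, with a median of −0.21, or −0.10 without mutant replicate 2.

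Polymerase and primase genes were lower in 9 of 9 cases on the deposited values (median −0.14), but their median was 0.03 after cyclic loess and 0.02 after repeated quantile normalization. Without mutant replicate 1 it was −0.30, and without mutant replicate 3 −0.07. Relative to genes of like brightness 6 of the 9 were higher. Prim1, the catalytic primase subunit gene, was at 7.89, 8.20 and 8.18 in controls and at 8.05, 7.37 and 7.56 in mutants (−0.43 ± 0.19), with mutant replicate 1 among the controls, and −0.28 without mutant replicate 2. Pole2, a subunit gene of the leading strand polymerase, was at 6.35, 6.39 and 6.57 in controls and at 6.26, 5.66 and 6.20 in mutants (−0.40 ± 0.18), without overlap, and at −0.21 without mutant replicate 2. Pole, the catalytic subunit gene of the same enzyme, was at −0.10 ± 0.12, and Pold1, that of the main lagging strand polymerase, at −0.03 ± 0.13. The 5 remaining members ranged from −0.22 for Pola2 to −0.12 for Prim2.

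Sliding clamp and clamp loader genes were lower in 5 of 5 measured cases, with a median of −0.21, −0.09 without mutant replicate 2 and −0.02 after cyclic loess. Pcna, the clamp that holds polymerases on DNA and the brightest member, was at 11.12, 11.21 and 11.26 in controls and at 11.16, 10.58 and 11.08 in mutants (−0.25 ± 0.17). Mutant replicate 1 lay among the controls and mutant replicate 3 just below them, and without mutant replicate 2 the difference was −0.07. Rfc2 was at 7.64, 7.51 and 7.50 in controls and at 7.64, 7.29 and 7.06 in mutants (−0.22 ± 0.16), a difference of −0.09 without mutant replicate 3 and −0.38 without mutant replicate 1. Rfc1, Rfc3 and Rfc5 were at −0.21, −0.21 and −0.16, and Rfc5 turned to 0.02 after both renormalizations. Without mutant replicate 2 Rfc1 was at −0.09 and Rfc3 at −0.03, and without control replicate 3 Rfc1 was also at −0.09. For the joining of lagging strand fragments, Lig1, the DNA ligase gene, was at 9.90, 10.01 and 9.95 in controls and at 9.81, 9.78 and 9.61 in mutants. This difference of −0.22 ± 0.11 came without overlap, and it turned to 0.01 after cyclic loess. Fen1, the flap nuclease gene, was at 7.13, 7.05 and 6.83 in controls and at 6.87, 6.92 and 7.01 in mutants, with overlapping groups, and its difference of −0.07 ± 0.12 turned to 0.05 after cyclic loess and 0.06 after repeated quantile normalization.

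Single-strand binding genes, whose products coat unwound DNA, held the largest difference of all members, and on the probe set used 1 array set most of it. Rpa3 was at 8.92, 9.01 and 9.08 in controls and at 8.77, 6.67 and 8.86 in mutants (−0.91 ± 0.52). Every mutant lay below every control, but without mutant replicate 2 the difference was −0.19. A further probe set of Rpa3 was also lowest on mutant replicate 2, with 7.33 to 7.73 in controls and 7.43, 6.10 and 6.79 in mutants. On that probe set mutant replicate 3 too lay below every control. Rpa2 was at 7.55, 8.07 and 7.96 in controls and at 7.80, 7.73 and 7.21 in mutants (−0.28 ± 0.20), and mutant replicates 1 and 2 lay within the controls. Its difference was −0.10 without mutant replicate 3, −0.18 without control replicate 2 and −0.44 without control replicate 1. Rpa1, at −0.27 ± 0.22, was low on mutant replicate 2 only, and its difference was 0.01 without that array. Its dimmer probe set had a similar difference (−0.30) but another pattern by array. It was at 7.70, 7.81 and 8.00 in controls and 7.47, 7.59 and 7.55 in mutants, without overlap.

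Chromatin genes that act behind the fork gave the member with the lowest unadjusted p. Chaf1b, a subunit gene of the histone chaperone CAF-1, was at 6.88, 7.18 and 6.998 in controls and at 6.67, 6.36 and 6.47 in mutants (−0.52 ± 0.14, unadjusted p = 0.00531 in limma, rank 53 of 13308). The gap between the nearest control and mutant values was wider than for the other 9 members without overlap, and the difference lay between −0.61 and −0.44 on leaving out any 1 array. Relative to genes of like brightness it was −0.40. Chaf1a, the large subunit gene of the same complex, was at 7.16, 7.47 and 7.62 in controls and at 7.22, 7.69 and 7.21 in mutants (−0.05 ± 0.18), turning to 0.11 after cyclic loess and 0.12 after repeated quantile normalization. Uhrf1, which guides maintenance DNA methylation, was at 8.80, 9.32 and 9.34 in controls and at 8.82, 9.19 and 8.61 in mutants (−0.28 ± 0.20), and control replicate 1 lay among the mutants. Its difference was −0.15 without mutant replicate 3, −0.19 without control replicate 3, −0.43 without mutant replicate 2 and −0.46 without control replicate 1.

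Fork protection and nucleotide supply genes were lower in 3 of 3 and 5 of 5 cases, with medians of −0.13 and −0.26. Without mutant replicate 2 these medians were −0.26 and −0.12, and without mutant replicate 3 the fork protection median was −0.06. Tipin, a fork protection gene, was at 8.64, 8.68 and 8.75 in controls and at 8.73, 7.30 and 8.18 in mutants (−0.62 ± 0.31, and −0.23 without mutant replicate 2). Its binding partner Timeless was at 6.12, 6.07 and 6.33 in controls and at 5.94, 6.28 and 5.89 in mutants (−0.13 ± 0.15), so that the array lowest for Tipin was the highest mutant for Timeless. Clspn, the checkpoint mediator gene, was at −0.13 ± 0.17 and turned to 0.04 after both renormalizations. Of the nucleotide genes, Rrm1, the large subunit gene of ribonucleotide reductase, was at 9.13, 9.31 and 9.44 in controls and at 8.99, 9.01 and 9.09 in mutants (−0.26 ± 0.12) without overlap. Tk1, the thymidine kinase gene, was at 7.59, 7.97 and 7.74 in controls and at 7.60, 7.35 and 7.34 in mutants (−0.34 ± 0.14, unadjusted p = 0.0474 in limma), with mutant replicate 1 just above control replicate 1. Dut was at −0.37 and Rrm2 at −0.23, both lowest on mutant replicate 2, and without that array they were at −0.12 and −0.02. The dimmer probe set of Rrm2 was at 8.20 to 8.49 in controls and 7.87 to 8.08 in mutants (−0.39), without overlap. Tyms, the thymidylate synthase gene, hardly differed (−0.01 ± 0.13, and 0.13 after cyclic loess and after repeated quantile normalization).

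Mutant replicates 2 and 3 had 4 of their lowest members in common. More than 0.5 below the control mean were 17 members on mutant replicate 2, 10 on mutant replicate 3 and 0 on mutant replicate 1, against 18.9%, 6.27% and 1.02% of all genes tested. Gins2, Prim1, Chaf1b and Tipin were that low on both replicates 2 and 3, 4 of the 17 and 4 of the 10, and by sign 45 and 41 of the 50 members lay below the control mean there. The share of genes of like brightness that lay so low was not computed. In the brightest group, which held 16 members, the median gene was at −0.42 on mutant replicate 2 and −0.18 on mutant replicate 3. Whether the low genes differ between these arrays was not tested. Another 13 were so on replicate 2 alone, among them Rpa3, Gmnn, Dut, Rpa1, Gins1, Orc6, Rrm2 and Pcna. A further 6, Cdt1, Mcm5, Mcm7, Pola2, Rpa2 and Uhrf1, were so on replicate 3 alone. Chaf1a, Clspn, Timeless, Dbf4 and Uhrf1 were above their control means on replicate 2. These members were singled out after their values were seen.

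**Figure D4:**
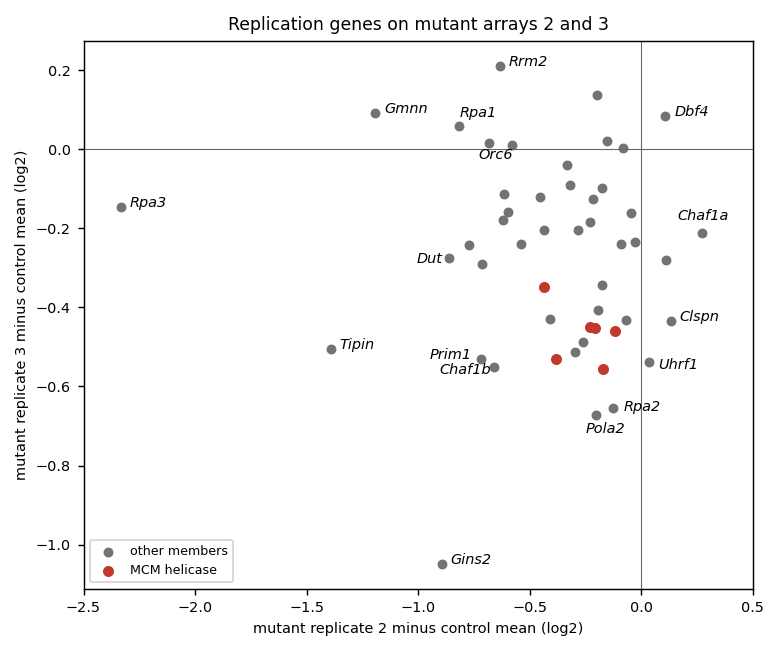
Value minus the control mean (log2) on mutant replicate 2 (x axis) and mutant replicate 3 (y axis) for the 50 replication genes, with the MCM helicase in red. Rpa3, Tipin and Gmnn are far left, low on replicate 2, while the 6 MCM genes lie 0.35 to 0.56 below 0 on replicate 3, and Gins2 alone is below −0.8 on both.

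E2F-type words and CCAAT were more frequent in the promoter windows of replication genes than in those of all genes tested. Windows from 250 bases before to 50 bases after the annotated start were searched on both strands for 4 E2F-type words, TTTCCCGC, TTTCGCGC, TTTGGCGC and TTTGCCGC, and for CCAAT and TTTGAA; matches may share bases with one another. RefSeq windows (GRCm38.p6) were matched by symbol for 42 of the 51 members. An E2F-type word stood in 16 of the 42 genes (38.1%), against 4.44% of 10411 genes tested that had a window and 2.6% of all genes with one. By window, 32% of 50 member windows held one, against 2.26% of all 32851 windows. The letters CCAAT stood in 59.5% of member genes and 41.7% of genes tested, and TTTGAA in 16.7% and 14.9%. Of the 22 matches in member windows 14 began between 100 bases before and 50 bases after the start, within windows of 300 bases. The same count was not made for other genes. These are matches of letters, not measured binding.

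Within the machinery, members with and without an E2F-type word had similar median differences. A link between the words and the difference was not tested, and no member passed the adjusted threshold. The median difference was −0.23 over 16 tested members with a word in the window and −0.22 over 25 without one, and both medians were −0.04 relative to genes of like brightness. Mcm5, Mcm6 and Mcm7, whose products sit in the same ring and whose differences were alike, and Pole2, without overlap between groups, show how the words are placed. Chaf1b, the member with the lowest unadjusted p, is shown because its window held no such word. Mcm7 had 2 annotated windows, and its other window, which held no such word, is not shown. Each window runs 5′ to 3′ from 200 bases before to 30 bases after the start, with the E2F-type words of either strand in capitals.
Mcm5, plus strand, chr8:75109309-75109538: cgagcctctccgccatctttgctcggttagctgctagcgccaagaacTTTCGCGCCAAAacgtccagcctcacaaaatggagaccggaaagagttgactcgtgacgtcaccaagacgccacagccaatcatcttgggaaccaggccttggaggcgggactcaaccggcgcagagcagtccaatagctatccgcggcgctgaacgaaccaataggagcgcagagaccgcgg
Mcm6, minus strand, chr1:128359676-128359905: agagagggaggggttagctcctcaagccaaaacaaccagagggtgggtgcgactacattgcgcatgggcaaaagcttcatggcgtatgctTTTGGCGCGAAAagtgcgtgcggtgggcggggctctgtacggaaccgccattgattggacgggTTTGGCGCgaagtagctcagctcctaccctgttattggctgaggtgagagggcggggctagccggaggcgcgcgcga
Mcm7, minus strand, chr5:138171854-138172083: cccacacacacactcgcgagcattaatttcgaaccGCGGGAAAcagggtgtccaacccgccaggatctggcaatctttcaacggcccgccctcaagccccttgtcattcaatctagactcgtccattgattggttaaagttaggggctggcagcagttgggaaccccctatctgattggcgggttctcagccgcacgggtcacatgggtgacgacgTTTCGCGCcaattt
Pole2, minus strand, chr12:69228161-69228390: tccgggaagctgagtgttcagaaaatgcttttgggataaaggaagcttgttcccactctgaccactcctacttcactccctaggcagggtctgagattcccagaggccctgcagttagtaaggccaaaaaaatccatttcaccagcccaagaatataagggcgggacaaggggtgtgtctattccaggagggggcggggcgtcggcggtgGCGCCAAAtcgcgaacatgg
Chaf1b, plus strand, chr16:93883701-93883930: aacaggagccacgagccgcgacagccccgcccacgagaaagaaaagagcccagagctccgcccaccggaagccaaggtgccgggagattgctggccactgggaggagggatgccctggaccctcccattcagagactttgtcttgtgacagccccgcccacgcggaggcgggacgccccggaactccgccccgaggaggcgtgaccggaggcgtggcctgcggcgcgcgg
In Mcm5 and in Mcm6 overlapping words on opposite strands form 12 unbroken capitals, Mcm6 has a further word nearer the start, and in Mcm7 and Pole2 a word lies just after the start.

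Other genes of the replication pathway, outside the 51, had lower mutant means in most cases, as did genes of like brightness, and 0 of them passed the adjusted threshold in either direction. Of 12 other origin and helicase genes 12 were lower (median −0.23, and −0.07 without mutant replicate 2), and 10 were lower relative to genes of like brightness (median −0.12). They were led by Orc4 (8.16 ± 0.22 in controls, 7.36 ± 0.63 in mutants; SD over 3 arrays a group), Topbp1 (−0.28 ± 0.13, SE) and Rif1 (−0.34 ± 0.17). Without mutant replicate 2 the difference of Orc4 was −0.45 in place of −0.79, and that of Rif1 −0.20; without mutant replicate 1 Rif1 was at −0.52. Of 13 tested fork and lagging strand genes 11 were lower (median −0.16, −0.09 without mutant replicate 2 and −0.25 without mutant replicate 1), with the topoisomerase gene Top2a at −0.23 ± 0.12, Pold4 at −0.39 ± 0.21 and Pole3 higher at 0.24 ± 0.14, or 0.13 without mutant replicate 2. Pold4 was at −0.25 without mutant replicate 3 and −0.24 without control replicate 2. Relative to genes of like brightness 8 of the 13 were lower (median −0.02). Of 8 tested chromatin assembly genes 8 were lower (median −0.29), including Slbp, which binds histone mRNA (8.76 ± 0.15 and 8.41 ± 0.14, SD), and the histone chaperone genes Asf1a (−0.66 ± 0.30, SE) and Asf1b (−0.26 ± 0.14). Asf1a was at −0.27 without mutant replicate 2, and relative to genes of like brightness 5 of the 8 were lower (median −0.09). Of 12 tested nucleotide synthesis genes 10 were lower (median −0.21, and −0.10 without mutant replicate 2), and 6 of the 12 relative to genes of like brightness (median −0.04). They were led by Samhd1, whose product breaks down deoxynucleoside triphosphates (8.54 ± 0.24 and 7.77 ± 0.46, SD), the p53-inducible reductase subunit gene Rrm2b (7.28 ± 0.23 and 6.82 ± 0.17) and the purine synthesis gene Paics (7.98 ± 0.18 and 7.58 ± 0.17).

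Regulators of the S phase programme were mixed. Among 18 tested E2F factors and genes of G1/S control 14 were lower and 4 higher, with a median of −0.18 that was −0.02 after cyclic loess and −0.01 relative to genes of like brightness. E2f8, a repressor of the E2F family, averaged 8.62 ± 0.09 in controls, against 8.24 ± 0.20 in mutants (SD over 3 arrays a group), and the pocket protein gene Rb1 at 8.81 ± 0.10 and 8.40 ± 0.34, both without overlap, and Rb1 differed by −0.22 without mutant replicate 2 in place of −0.41. Tfdp2, an E2F partner gene, was at −0.27 ± 0.14 (SE), or −0.16 without that array, while the activator gene E2f1, named after its values were seen, was at 6.31 ± 0.11 and 6.35 ± 0.02 (SD). In the ATR and CHK1 checkpoint, which guards stalled forks, 8 of 9 were lower, with a median of −0.23, or −0.08 both without mutant replicate 2 and relative to genes of like brightness. Its leading genes were the ATR activator gene Etaa1 (6.15 ± 0.06 in controls and 5.78 ± 0.19 in mutants, SD), Rad9a (7.89 ± 0.10 and 7.55 ± 0.19) and the CDK inhibitory kinase gene Wee1 (−0.27 ± 0.16, SE), which was at −0.10 without mutant replicate 2.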

How the data were processed

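The authors deposited log2 intensities per probe set computed with RMA (per the submitters' processing notes); the RMA version and the probe annotation are not given there. Per the labels' protocols, Trizol-extracted RNA was amplified with the NuGen Ovation kit and biotin-labelled. RMA corrects background, equalises array distributions and leaves no detection call.

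Of 41345 probe sets, 23521 had 1 gene symbol in the platform annotation, 1814 had several and 16010 none. The mutant minus control difference was fitted by limma 3.58.1 (R 4.3.3; eBayes on lmFit, both sides), with Benjamini-Hochberg adjustment over 13308 genes. Scores, brightness groups and list medians carry no test. Errors of differences are limma standard errors. The scripts were tested on simulated data. Figures used matplotlib 3.10.9.

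The members and lists were chosen with earlier results of these data known. Values by array were given for members whose groups did not overlap, the 2 with the lowest p per role and those with a higher mutant mean, and a few more were added after their values were seen; of each further list the 3 genes with the lowest p were named. Alternatives were other filters, probe set rules, variance priors, array weights, normalizations, blocks and leaving out each array.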

Additional observations from a re-analysis of the deposited data

How the results depend on the processing

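The count of members with a lower mutant mean was 44 to 49 on leaving out 1 array and 35 to 49 under all 16 alternatives fitted to all members. The median difference of the members was −0.32 to −0.18 on leaving out 1 array, −0.0698 after repeated quantile normalization and −0.056 after cyclic loess. Relative to genes of like brightness it stayed between −0.10 and −0.03. The number of genes past the adjusted threshold, 0, was 0 to 4 on leaving out 1 array, and 0 of these were members. It was 2960 with array weights, among them 20 members, a count that rests on weights estimated from 3 arrays per group. At an unadjusted p under 0.05 there were 1068 genes and 5 members. With the replicate number as a block, 0 genes passed and 0 members. The deviations of same-numbered arrays had r of 0.132, 0.203 and −0.133, and 1 of 3 pairs was best with its own number. With 3 arrays a group, these values cannot decide whether arrays were paired by number.

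The cause of the following sign changes was not tested. After cyclic loess the difference was above 0 for Rrm2 (0.0072), Pold2 (0.008), Lig1 (0.0101), Rfc5 (0.017), Pold3 (0.026), Cdc7 (0.033), Clspn (0.039), Prim2 (0.039), Fen1 (0.046), Pola1 (0.049), Pole (0.082), Chaf1a (0.11), Tyms (0.13) and Pold1 (0.16). After repeated quantile normalization it was so for Pold2 (0.0055), Orc1 (0.015), Rfc5 (0.019), Pold3 (0.022), Pola1 (0.027), Prim2 (0.028), Clspn (0.0401), Cdc7 (0.048), Fen1 (0.064), Pole (0.092), Chaf1a (0.12), Tyms (0.13) and Pold1 (0.15). With array weights it was so for Orc1 (0.022), Fen1 (0.026), Rpa1 (0.038), Gmnn (0.059), Tyms (0.099) and Rrm2 (0.15). The less bright probe set of Fen1 was at 0.0046. On leaving out 1 array the difference ran from −0.1377 to 0.0147 for Orc1, −0.5525 to 0.0898 for Gmnn, −0.4379 to 0.0059 for Pola2, −0.3199 to 0.0431 for Prim2, −0.1031 to 0.0324 for Pold1, −0.2507 to 0.0207 for Pold3, −0.4293 to 0.0076 for Rpa1, −0.2054 to 0.0566 for Chaf1a, −0.2628 to 0.0196 for Clspn and −0.0894 to 0.0786 for Tyms.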
